A study of Drosophila melanogaster with 4 samples.

Results

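Copia is a long terminal repeat (LTR) retrotransposon of *Drosophila melanogaster* and the founding member of the Ty1/copia class. The present account covers its RNA, 1 of 124 transposons among 150 reference sequences with deposited counts, chosen by name (TE equal to copia). Poly(A) RNA was sequenced directly on a nanopore device from 4 samples, with 1 library in each group. The control ovaries had the genotype Tj-GAL4>arrestin2GD and the knockdown ovaries Tj-GAL4>vretenoGD. Tj-GAL4 drives expression in ovarian somatic cells, so the knockdown was aimed at these cells and not at the germ cells. Arrestin2 is a photoreceptor protein and served as the control target, and vreteno, a Tudor-domain protein, acts in the making of piRNAs. The other pair came from OSCs, a cultured line of ovarian somatic (follicle) cells, given siGFP as the control or siPIWI against the nuclear Argonaute protein Piwi. The age of the flies and the number of animals per library are not given in the labels. Levels of *vreteno* and *piwi* mRNA and markers of the tissues were not analysed here, so neither knockdown nor tissue label was checked.

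Copia RNA starts in the 5' repeat and runs to the 3' repeat, which carries the site of cleavage and polyadenylation. The 2 repeats have nearly the same sequence, so a short read that lies in 1 of them can often be placed in either. The full-length RNA codes for Gag and for protease, integrase and reverse transcriptase. A spliced, shorter RNA codes for Gag alone, which forms virus-like particles around copia RNA. Copia has no envelope gene of the kind that the endogenous retroviruses gypsy and ZAM carry, and it is named after its copious RNA, first seen in cultured fly cells. piRNAs guide Piwi proteins to transposon RNA, and in ovarian follicle cells they silence mainly retroviruses of the gypsy class.

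Copia was the most abundant transposon in 3 of the 4 libraries and shared the top place in the remaining one. The reads assigned to copia numbered 498 in the ovary control and 903 with vreteno knockdown, against 41777 in OSCs given siGFP and 86920 in those given siPIWI. Both OSC libraries thus held far more copia reads than either ovary library, and the ovary values are the less precise ones. All transposon reads numbered 2382, 5156, 57045 and 164243 in the same order, totals that include copia. Transposon reads other than copia numbered 1884, 4253, 15268 and 77323. Reads of the 26 sequences that are not transposons numbered 406, 245, 446 and 954. These sequences include satellites, an rDNA spacer and Stellate, and whether the knockdowns left them unchanged was not tested. Full library depth is unknown, so these counts do not give the depth of the libraries. Copia made up 20.9% of transposon reads in control ovaries (95% counting interval 19.3 to 22.6) and 17.5% in vreteno knockdown ovaries (16.5 to 18.6). In OSCs it made up 73.2% with siGFP (72.9 to 73.6) and 52.9% with siPIWI (52.7 to 53.2). The 4 intervals do not overlap, though those of the ovary libraries did (16.5 to 19.3 and 15.7 to 17.7) when all 150 sequences were the denominator. The intervals cover counting error only, and no value has a replicate.

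**Figure D1:**
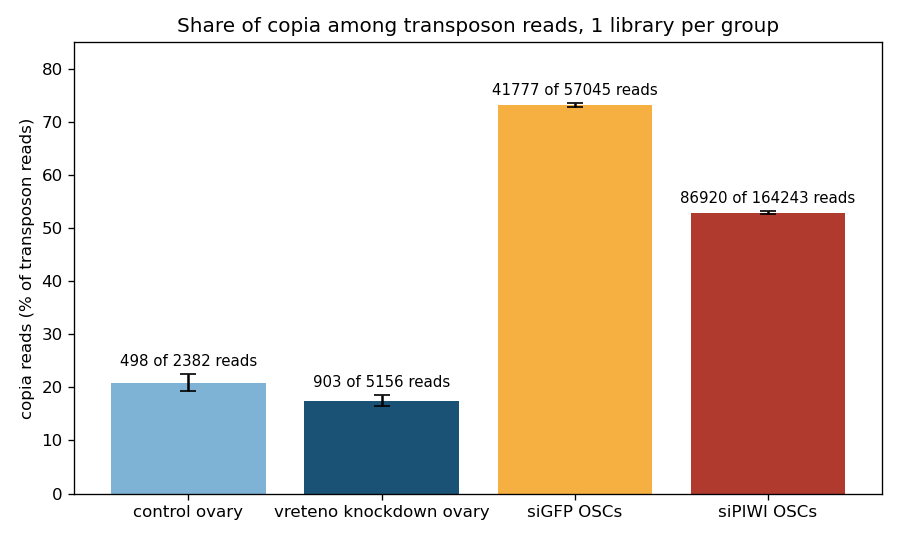
Copia reads as a percentage of all transposon reads (y axis) in each of the 4 libraries (x axis). Bars give the share, error bars the exact 95% binomial interval, and the text above each bar the reads behind it. The OSC bars, at 73.2% and 52.9%, stand above the ovary bars, at 20.9% and 17.5%.

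The distance between copia and the next element differed from library to library. In control ovaries copia had 1.95 times the reads of the LTR element '412' (interval 1.67 to 2.27), 2.08 times (1.78 to 2.43) those of the short repeat DNAREP1 and 2.28 times (1.94 to 2.69) those of the DNA transposon pogo. In vreteno knockdown ovaries '412' had 910 reads and copia 903, a ratio of 0.992 (0.904 to 1.09), so their order was not resolved. ZAM followed there with 573 reads and springer, another endogenous retrovirus, with 383. In siGFP OSCs springer came second with 9220 reads, so that copia had 4.53 times as many (4.43 to 4.63). Behind it, the LTR retrotransposon mdg3, had 852 reads, and copia had 49.0 times as many (45.8 to 52.5). Invader4 followed with 703. In siPIWI OSCs the ratio of copia to springer was 2.80 (2.77 to 2.84), followed by gypsy with 11386 reads and the LTR element mdg1 with 8137. The ratio of copia to the next element was thus lower in each knockdown library than in its control.

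The first knockdown comparison concerned the ovary. With vreteno knockdown, copia had 903 reads against 498 in the control, 1.81 times as many. Transposon reads other than copia went from 1884 to 4253, 2.26 times as many, and reads of the 26 sequences that are not transposons went from 406 to 245, a ratio of 0.603. Copia thus lay between these 2 sets. The libraries were scaled by the median ratio, 0.903, over 30 transposons that had at least 10 reads in each library (95% interval of the median 0.761 to 1.07). On that scale copia was 2.01-fold higher in the knockdown (counting interval 1.80 to 2.24), and the scaling adds a common factor of 0.845 to 1.19. The log2 ratio of scaled reads with a pseudocount of 1 read was 1.004. Among the 45 transposons with at least 10 reads in 1 of the 2 libraries, 18 had a higher log2 ratio and 26 a lower one, and the median of all 45 was 0.26. A ratio of 4-fold or more upwards was found for 24.4% of them and downwards for 0, and copia was in neither set. The direction rests on the scaling. The log2 ratio was -0.26 when the libraries were scaled to total transposon reads and -0.32 when copia was left out of that total. It was 1.58 when they were scaled to the sequences that are not transposons.

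The second comparison, in OSCs, gave a ratio for copia close to that of the sequences that are not transposons and below that of all transposon reads. Copia had 41777 reads with siGFP and 86920 with siPIWI, 2.08 times as many. Reads of the sequences that are not transposons went from 446 to 954, 2.14 times as many, and the median ratio over 54 transposons was 1.99 (1.55 to 2.63). The other transposons together went from 15268 to 77323 reads, 5.06 times as many. The lower share of copia in siPIWI OSCs thus came with more reads of other elements. The copia ratio was close to that of the sequences that are not transposons, which were not tested as a stable reference. Scaled by the median ratio, copia had a fold of 1.05 (1.04 to 1.06), to which the scaling adds a factor of 0.754 to 1.28, and a log2 ratio of 0.07. Of 73 transposons past the read minimum, 40 had a higher log2 ratio and 32 a lower one, with a median of 0.29. Here 24.7% passed the 4-fold rule upwards and 0 downwards, again without copia. With scaling to the sequences that are not transposons the log2 ratio was -0.04. That scale rests on 446 and 954 reads, whose own counting error is in no interval here. With scaling to total transposon reads the log2 ratio was -0.47, or -1.28 when copia was left out of the total. It was 0.42 with a median ratio that left out the gypsy and mdg1 groups. Whether the ovary and OSC folds of copia differ between conditions could not be tested with 1 library per group.

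**Figure D2:**
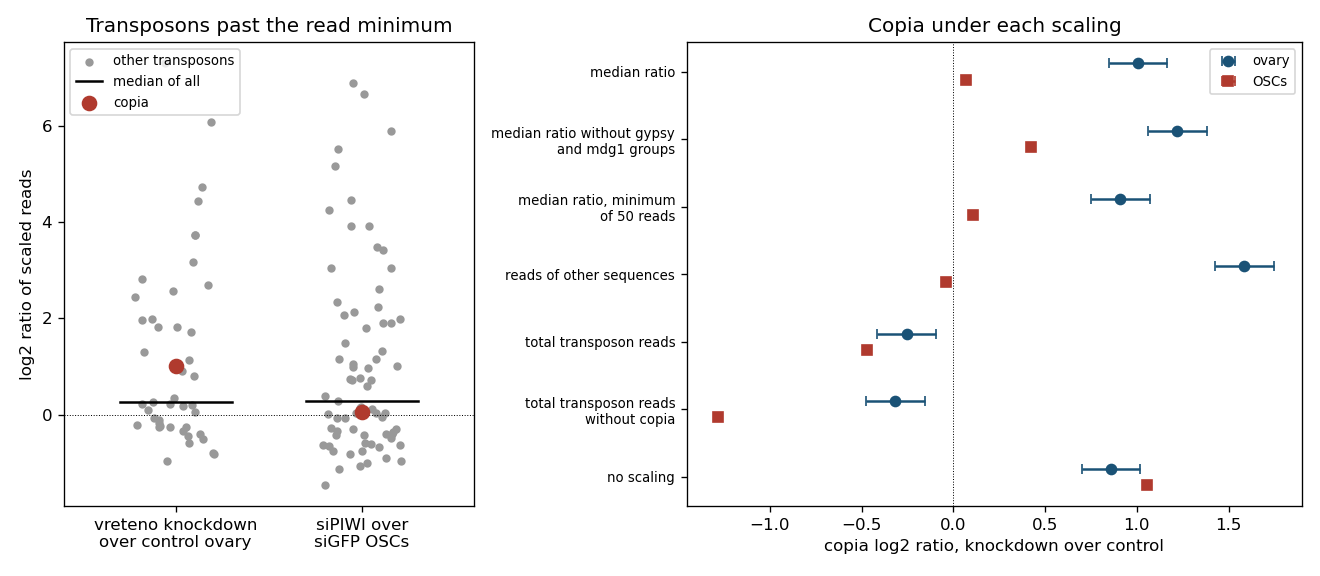
Left, the log2 ratio of knockdown over control (y axis, median-ratio scaling, pseudocount of 1 read) for each transposon past the read minimum in ovary (45) and OSCs (73); grey points are other transposons, the black line is the median of all and the red point is copia, at 1.004 and 0.07. Right, the log2 ratio of copia (x axis) under 7 scalings (y axis), with 95% counting intervals; ovary (circles) and OSC (squares) values lie on both sides of 0.

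The control libraries allow a view of copia across the 2 sources, ovary tissue and a follicle cell line. The share of copia among transposon reads in siGFP OSCs was 3.503 times that in control ovaries (3.21 to 3.83). Among 59 transposons with at least 10 reads in 1 of these libraries, 4 had a larger log2 ratio of shares: invader4, springer, diver and gypsy12. The log2 ratio of copia was 1.81 and the median of the 59 was -1.95. The 4-fold rule was passed by 5.08% with the higher share in OSCs and by 49.2% with the lower one. Copia, just under the rule, was in neither set. A share is bounded by the whole, and 1 dominant element lowers the shares of all others. When the 2 libraries were scaled instead by the median ratio of 26 transposons that had at least 10 reads in each, copia was 64.4-fold higher in OSCs (59.0 to 70.5). That scaling was chosen after the data were seen, and its median ratio, 1.30, has an interval of 0.617 to 3.19. In the ovary libraries, which hold germ cells and several somatic cell types, fewer cells with copia RNA and less copia RNA per cell cannot be told apart. Source, culture and library also cannot be told apart.

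Other elements of the Ty1/copia class did not share the abundance of copia. The list held 6 names, of which 4 were in the files, copia included. The element '1731' had 15 reads in control ovaries, 10 in knockdown ovaries, 201 in OSCs with siGFP and 311 in OSCs with siPIWI. Its scaled fold was 0.738 in ovary (0.297 to 1.76) and 0.779 in OSCs (0.651 to 0.935, within the factor of the scaling). Dm88 had 25 and 29 reads in the ovary libraries and 2 and 24 in the OSC libraries. Its fold was 1.28 in ovary (0.726 to 2.29) and 6.05 in OSCs, on those few reads (1.501 to 52.8). It was the only listed element past the 4-fold rule, in OSCs and at a log2 ratio of 2.24, against 24.7% of all transposons there. Frogger had 0 reads in all 4 libraries, which in siPIWI OSCs allows a share of up to 0.00183% of transposon reads. A further entry named Copia1, outside the list, had 3, 0, 107 and 126 reads in the same order of libraries. Its share of transposon reads was 0.188% in OSCs with siGFP (0.154 to 0.227) and 0.0767% in OSCs with siPIWI (0.0639 to 0.0913), and the 0 reads in knockdown ovaries allow up to 0.0582%.

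The transposon whose levels across the 4 libraries were most like those of copia was mdg3. Likeness was measured as the root mean square distance between log2 levels, relative to transposon reads other than copia and centred on each element's mean, over 25 transposons with at least 10 reads in every library. Mdg3 had 23 and 37 reads in control and knockdown ovaries and 852 and 1647 in siGFP and siPIWI OSCs, at a distance of 0.601, against a median of 2.74. Its scaled folds were 1.78 in ovary (1.03 to 3.14) and 0.974 in OSCs (0.896 to 1.06), beside 2.01 and 1.05 for copia. The next were '1731' at 1.24, springer at 1.48, '297' at 1.68 and blood at 2.02. Springer shared the high OSC levels but had a scaled fold of 28.3 in ovary (16.9 to 51.0), far above that of copia. These distances describe 4 libraries that all elements share, and '1731' rests on 10 to 15 ovary reads.

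Copia reads ended at a small set of exact nucleotides near the 3' end of the element, and largely the same set was used in all 4 libraries. Positions are counted from 1 at the 5' end of the 5143-nt copia consensus, and each deposited count was read as the 3' end of 1 read. The median end was at position 5069 in control ovaries and at 5072 in the other 3 libraries. The lower and upper quartiles were 5060 and 5076 in both ovary libraries, and 5065 and 5076 in both OSC libraries. To hold 90% of the copia reads took 20 positions in control ovaries, 13 in knockdown ovaries and 11 in each OSC library. At least 1 read was found at 66, 73, 582 and 974 positions in the order of control ovaries, knockdown ovaries, siGFP and siPIWI. Among 16 transposons with at least 400 reads in siPIWI OSCs, the number of positions that held 90% of the reads ran from 8 to 119, and 2 of the 16 needed fewer positions than copia. The share of ends in the last 10% of the consensus was 96.4% for copia and 96.3% for flea, a Ty3/gypsy element with 1472 reads. These reads do not resolve the order of copia and flea. The share was 88.3% for springer and 41.5% for mdg3, and the lowest of the 16 was 16.8%, for invader4.

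The site used most was position 5076, in every library. It took 21.3% of copia reads in control ovaries (17.8 to 25.1), 21.8% in knockdown ovaries (19.2 to 24.7), 25.6% in OSCs with siGFP (25.2 to 26.005) and 24.2% in OSCs with siPIWI (23.9 to 24.5). In all, 10 positions held at least 1% of copia reads on average over the libraries: 5053, 5055, 5060, 5065, 5069, 5072, 5076, 5083, 5090 and 5141. That limit was set after the data were seen. The last position inside it was 5141, at 1.05% on average, and the first outside was 5045, at 0.839%. Together the 10 sites held 84.3% of copia reads in control ovaries (80.8 to 87.4), 87.4% in knockdown ovaries (85.03 to 89.5), and 89.2% in each OSC library. The first 9 lie between 53 and 90 nt from the 3' end of the consensus, 2 to 7 nt apart, and 5141 lies 2 nt from it.

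The sites were single nucleotides. At 9 of the 10, no read ended 1 nt to either side in any library, although position 5076 alone held 21036 reads in siPIWI OSCs. The exception was 5141, which had reads at the position just before it. Such isolated positions were not particular to copia: among the 16 abundant transposons in siPIWI OSCs, 11 had no read next to their main position, and at most 2.06% of an element's reads lay there (mdg1). How far the alignment and trimming of the poly(A) tail fixed the deposited position to certain nucleotides was not tested.

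The use of the sites differed between ovary and OSCs most at position 5060. This site took 12.4% of copia reads in control ovaries (9.68 to 15.7) and 11.1% in knockdown ovaries (9.10 to 13.3). In OSCs it took 4.51% with siGFP (4.32 to 4.72) and 4.23% with siPIWI (4.10 to 4.37). The ovary libraries were both above the OSC libraries, with no overlap of the intervals. The share in siGFP OSCs was 0.363 times that in control ovaries (0.282 to 0.475), and the share in siPIWI OSCs was 0.382 times that in knockdown ovaries (0.313 to 0.471). Its rank among all positions was 3 in control ovaries, 5 in knockdown ovaries and 7 in both OSC libraries. Of the 10 sites, 2 had an interval off 1 between the control libraries, 5060 and 5090, and 4 did so between the knockdown libraries, 5060, 5069, 5083 and 5090. At position 5090 the shares were 1.20% and 1.77% in the ovary libraries, from 6 and 16 reads, and 2.92% and 2.94% in the OSC libraries. At position 5069 they were 9.24% and 7.31% in ovary and 12.2% and 12.3% in OSCs.

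Between knockdown and control the site use was closer. Over the 10 sites plus the remainder, 7.87% of copia reads would have to be placed elsewhere to turn 1 ovary library into the other, and 3.06% for the OSC libraries. Between control ovaries and siGFP OSCs that figure was 14.5%. These figures contain counting error, which is larger in ovary. The 1 site with an interval off 1 in ovary was 5083, with 34 of 498 reads (6.83%, 4.77 to 9.41) in the control and 120 of 903 (13.3%, 11.1 to 15.7) in the knockdown, 1.95 times the share (1.32 to 2.94). In OSCs the same site took 9.27% (8.99 to 9.55) and 10.4% (10.2 to 10.6), 1.13 times the share (1.08 to 1.17). The control ovary value was the lowest of the 4 and the knockdown ovary value the highest. In OSCs, 7 of the 10 sites had an interval off 1, with ratios from 0.679 to 1.17. The depth of these libraries resolves differences that small, and 10 sites were compared without adjustment. The ratios farthest from 1 in OSCs were those at 5141, where the share went from 0.974% to 0.662%, and at 5072, where it went from 10.6% to 12.3%. Position 5141 was among the 10 sites only because of its share in control ovaries.

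**Figure D3:**
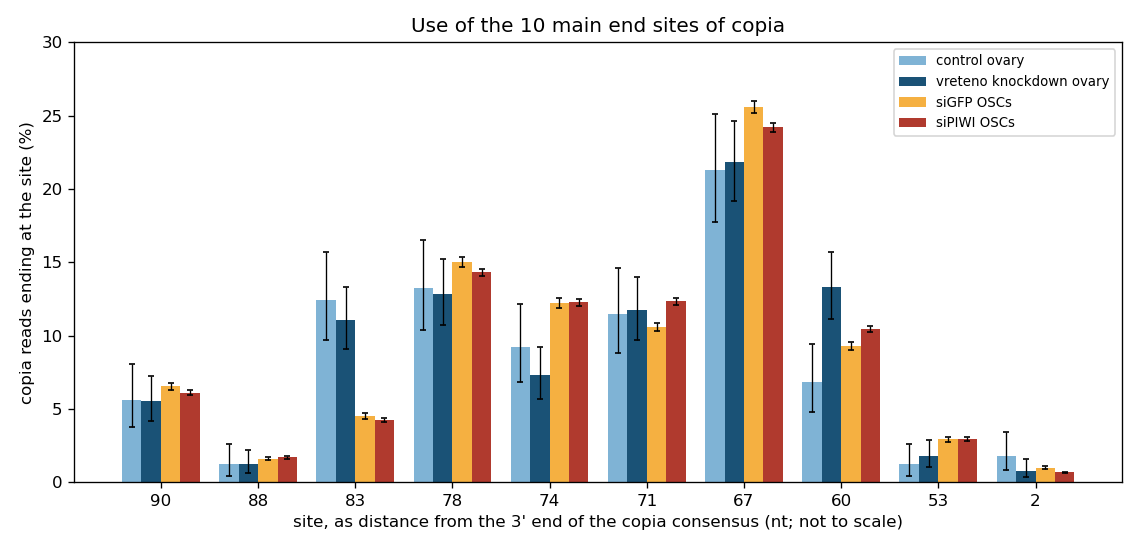
Share of copia reads that ended at each of the 10 main sites (y axis, percent), by distance of the site from the 3' end of the consensus (x axis, nt), in the 4 libraries; bars give the share and error bars the exact 95% interval. The site 67 nt from the end (position 5076) is the highest in every library, and at 83 nt (position 5060) both ovary bars stand above both OSC bars.

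Away from the 3' end, reads also ended in the 5' terminal repeat. The profile of ends at the start of the element matched that at its end best at a shift of 4869 nt in each of the 4 libraries. The correlation at that shift, in both OSC libraries together on a log2 scale, was 0.757 over 274 positions, and the next best shift gave 0.320. This is a description of 1 element, with both profiles from the same libraries. The repeats were therefore taken as positions 1 to 274 and 4870 to 5143, with the interior from 275 to 4869. The main end site has its counterpart at position 207, and the whole group of sites from 5053 to 5090 has one at 184 to 221. The 5' repeat held 8 of 498 copia reads in control ovaries, 17 of 903 in knockdown ovaries, 689 of 41777 in OSCs with siGFP and 974 of 86920 in OSCs with siPIWI. Of these, 8, 14, 599 and 874 lay at the counterparts of the 10 sites. Position 272, the counterpart of 5141 at that shift, had 0 reads in every library. The shift and borders come from the counts and not from the sequence, so this pairing near the repeat's edge was not checked.

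The share of copia reads in the 5' repeat was lower in siPIWI than in siGFP OSCs. It was 1.65% with siGFP (1.53 to 1.78) and 1.12% with siPIWI (1.05 to 1.19), 0.679 times as large (0.616 to 0.750). At the main site, 1.62% of the reads at positions 207 and 5076 together lay at 207 with siGFP (1.39 to 1.88) and 1.09% with siPIWI (0.951 to 1.23). At position 214 against 5083 the values were 2.42% (1.96 to 2.95) and 1.40% (1.17 to 1.66). With siGFP the share at 214 was above that at 207, with separate intervals, and with siPIWI their intervals overlapped. At 272 against 5141 the 0 reads have an upper limit of 0.902% with siGFP and 0.639% with siPIWI, below both. In ovary the share of copia reads in the whole 5' repeat was 1.61% (0.696 to 3.14) in the control and 1.88% (1.10 to 2.997) in the knockdown. No difference was detectable at this depth. Whether reads in the 5' repeat are RNAs that end there or reads of the 3' repeat placed in its copy was not tested.

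Reads that ended in the interior were few and spread over many positions. They numbered 27 in control ovaries, each at a position of its own, 32 in knockdown ovaries, 930 in OSCs with siGFP and 2655 in OSCs with siPIWI. In siPIWI OSCs they covered 845 positions, and the highest single position, 4840, had 34 reads. Copia thus had no strong internal end site in any of the 4 libraries. The interior share was 5.42% in control ovaries (3.60 to 7.79), 3.54% in knockdown ovaries (2.44 to 4.97), 2.23% in OSCs with siGFP (2.09 to 2.37) and 3.05% in OSCs with siPIWI (2.94 to 3.17). The control ovary value was the highest, and its interval overlapped that of the knockdown ovaries.

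**Figure D4:**
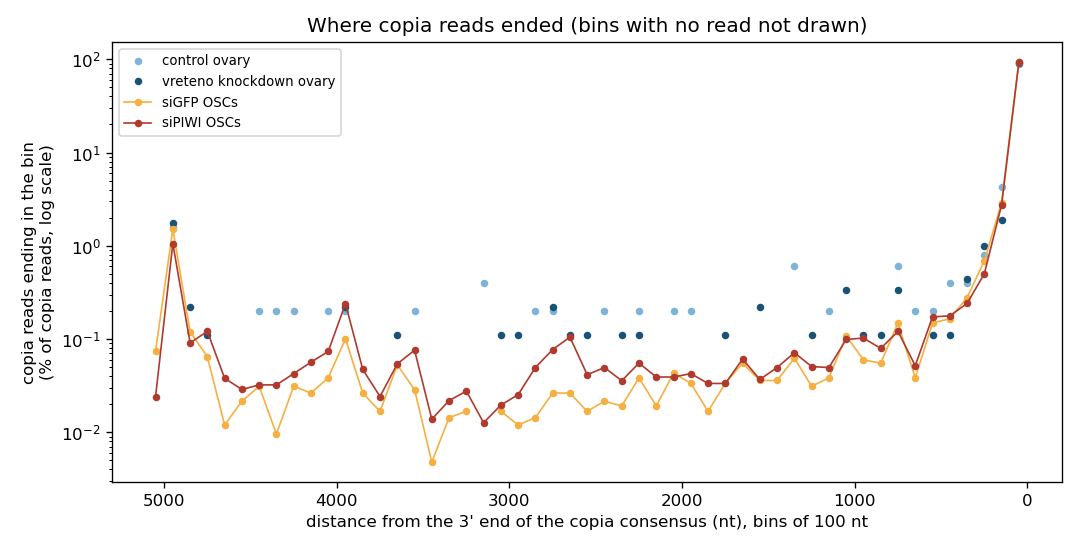
Share of copia reads that ended in bins of 100 nt (y axis, percent, log scale) against the distance from the 3' end of the consensus (x axis, nt) in the 4 libraries; OSC bins are joined by lines, and ovary bins, often of 1 read, are points. The profile peaks in the bin at the 3' end, has a second peak in the 5' repeat and is low in between. Over the whole 5' repeat, which spans several bins, siGFP OSCs held 1.65% of reads and siPIWI OSCs 1.12%.

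In OSCs the interior share was 1.37 times as large with siPIWI as with siGFP (1.27 to 1.48). Interior reads went from 930 to 2655, 2.85 times as many (2.65 to 3.08), while reads that ended in the 3' repeat went from 40158 to 83291, 2.07 times as many (2.05 to 2.10). Of 10 bins along the interior, 6 had a ratio of shares with its interval above 1 and 0 had one below 1. The largest ratio lay between positions 2275 and 2774, where reads went from 43 to 277 and the share was 3.10 times as large (2.24 to 4.38). Those 277 reads ended at 99 positions, with at most 13 at 1 of them. Between 775 and 1274 reads went from 88 to 386, a ratio of shares of 2.11 (1.67 to 2.69), over 88 positions with at most 31 reads at 1. In the bin of 4275 to 4774 the ratio was 1.05 (0.899 to 1.23). In ovary 0 of the 10 bins had an interval off 1, with 1 to 7 reads in each, and the interior ratio as a whole was 0.654 (0.379 to 1.13). These interior ends add little to the copia total. On the scaled values, the fold in OSCs was 1.04 (1.03 to 1.06) for the 3' repeat alone, beside 1.05 for all copia reads.

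**Figure D5:**
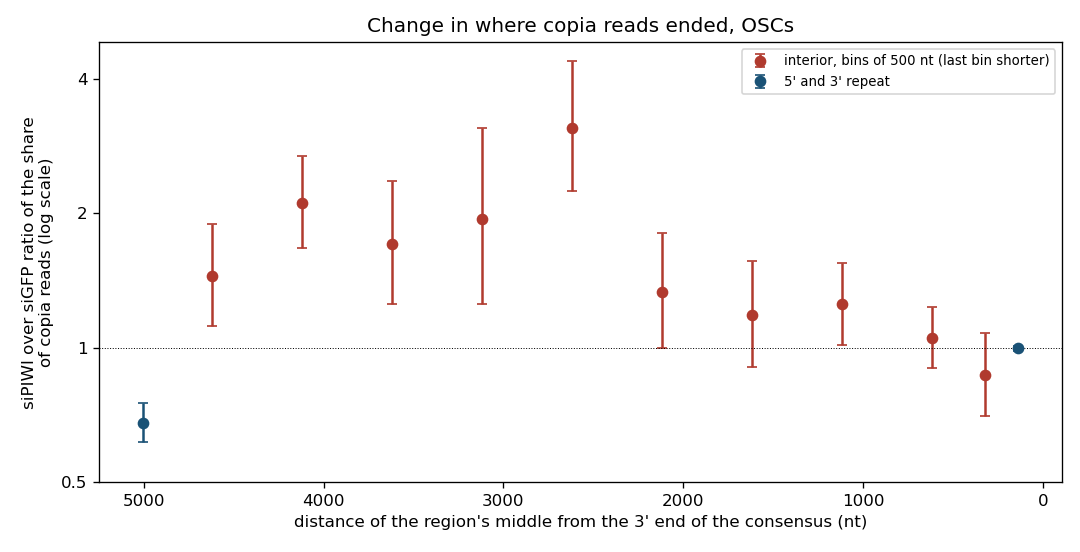
Ratio of the share of copia reads in siPIWI over siGFP OSCs (y axis, log scale) for 10 bins of the interior (red) and for the 5' and 3' repeats (blue), by distance of the region's middle from the 3' end of the consensus (x axis, nt); error bars are 95% counting intervals. The 5' repeat lies below 1 (0.679), 6 interior bins have intervals above 1, the highest at 3.10, and the 3' repeat lies near 1.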

How the data were processed

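The authors deposited, for each of 4 direct RNA nanopore libraries, whole-number counts per position of 150 sequences (columns TE, POS and VAL, per the file headers). The submitters' processing notes list minimap2. Version, settings, strand, the counting of multi-mapping reads and the rule for placing reads between repeats are not given in the sources used here. Copia counts sat mostly on isolated positions near the 3' end of the element, and counts were read as the 3' ends of reads. This reading comes from the values and was not checked otherwise. It rests on copia and elements like it. Over 16 transposons with at least 400 reads in siPIWI OSCs, the share in the last 10% of the consensus ran from 16.8% to 96.4%.

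Copia counts were summed per library, and 26 sequences that are not transposons were kept out of totals. Full library depth is unknown. Shares have exact Clopper-Pearson 95% intervals and ratios exact conditional ones, computed in Python 3.11.15 with SciPy 1.17.1. The limit for 0 reads was 3 reads. All cover counting error only. With 1 library per group there was no test and no p-value. For log2 ratios the median scaling was split evenly between the libraries before a pseudocount of 1 read was added, and elements were called at a 4-fold change. The fold and interval code was tested on simulated Poisson counts. The intervals were checked at the true simulated scale, so this check leaves out error in an estimated scale.

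Copia, the lists and the read minimum of 10 were chosen with earlier results of these data known. The elements named were the copia-like list, the 3 most abundant after copia per library and the 5 nearest in profile. Sequences of copia were not used here. Scaling, pseudocount, denominators, borders and windows were varied.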

Additional observations from a re-analysis of the deposited data

How the results depend on the processing

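With all sequences as the denominator, the copia share was 17.9% in control ovaries, 72.7% with siGFP and 52.6% with siPIWI. With reads in the last 10% of each element it was 28.9% and 21.8% in control and knockdown ovaries and 78.7% and 58.9% in siGFP and siPIWI OSCs. With the highest single position of each element it was 16.4%, 12.9%, 72.3% and 51.0% in that order. The order of the 4 libraries was the same under each of these, but the intervals of the ovary libraries overlapped with all sequences (16.5 to 19.3 and 15.7 to 17.7) and with the highest single position (13.6 to 19.4 and 11.2 to 14.6). The ovary log2 ratio of copia turned to -0.26 with total transposon reads and to -0.32 with that total without copia. It was 1.58 with the sequences that are not transposons and 1.22 with a median ratio that left out the gypsy and mdg1 groups. In OSCs it turned to -0.47, -1.28 and -0.040 with the first 3 of these scalings, and to -0.012 with reads at the main end position (-0.05 to 0.02). It was 0.42 without the gypsy and mdg1 groups, 0.11 with a minimum of 50 reads in the median and 1.06 with no scaling. The turns under other scalings follow from the scale factors, which apply alike to every element. The ratio of copia shares in control OSCs over control ovaries was 4.07 with all sequences and 2.73 with the last 10% of each element, and the fold of reads scaled by the median ratio was 64.4. The share of ends in the last 10% of copia was 96.7% in siGFP and 96.4% in siPIWI OSCs, against 96.1% and 95.8% in the 3' repeat. With a window of 10 nt the main end cluster held 49.4%, 55.0%, 58.5% and 60.2% of copia reads in control ovaries, knockdown ovaries, siGFP and siPIWI OSCs, and with 50 nt 87.8%, 91.6%, 92.9% and 93.2%. The other 30 recomputed values stayed within the counting interval of the reported one. No replicate could be left out, and no paired analysis was possible because each group has 1 library. Depth limits the ovary values most: an element with no read could still hold 0.126% of transposon reads in control ovaries.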

Other observations

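Beyond the sites already described, ends within 25 nt of a peak were joined into clusters, and the first 10 clusters by the share at the peak were kept. The main one, positions 5051 to 5101, held 83.5% of copia reads in control ovaries (80.0 to 86.7), 87.9% in knockdown ovaries (85.6 to 90.0), 89.5% in siGFP OSCs (89.2 to 89.8) and 90.0% in siPIWI OSCs (89.8 to 90.2). The cluster around 5045, just upstream, held 2.77% to 3.82% over the 4 libraries. A cluster around 4957, in the 3' repeat, held 0.847% with siGFP (0.762 to 0.940) and 0.556% with siPIWI (0.507 to 0.607). Of the 10 kept, 2 lay in the interior, around 4402 and 4842, each with at most 0.554% of copia reads in a library.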
